A study of Zea mays with 6 samples.

Results

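The transcripts described here are 7 genes of the circadian clock, out of 44320 genes in a table of maize (Zea mays) leaf RNA abundance. They were chosen by identifier. The set comprises 2 CCA1/LHY genes (Zm00001d024546 and Zm00001d049543), PRR37 (Zm00001d007240), the gigantea genes gi1 (Zm00001d008826) and gi2 (Zm00001d039589), and 2 TOC1 genes (Zm00001d017241 and Zm00001d051114). These names were assigned when the genes were chosen. Neither the deposited table nor the reference table used here pairs the identifiers with names, so the assignment was not checked against an annotation.

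The study compared leaves of wild-type plants (WT, 3 libraries) with leaves of KO1 plants (3 libraries), a line labelled as a gene-edited knockout of ZmGA20ox3. That gene encodes an oxidase of gibberellin synthesis, and gibberellins are hormones that promote stem elongation. All plants carry the cultivar label KN5585, although the growth protocol spells the wild type KN5855. All were greenhouse-grown without an imposed stress, and leaves were taken at vegetative stage V8 with 3 biological replicates per group. KO1 is a single line by its label, and the labels used here do not say how many plants a library holds or at what time of day the leaves were cut.

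The plant circadian clock is a loop of transcription factors and their repressors that keeps a daily rhythm in leaf gene expression. In Arabidopsis, CCA1 and LHY are related MYB factors that peak around dawn and repress genes of the evening. Pseudo-response regulators follow one another through the day and repress CCA1 and LHY, with TOC1 peaking around dusk, and GIGANTEA, a late-day protein, stabilises the F-box protein that degrades TOC1. In grasses the clock also sets flowering time: sorghum PRR37 delays flowering in long days.

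Values are TPM, a transcript abundance that is divided by gene length and scaled to the same total in each library. Sequencing depth is therefore unknown. A minimum of 1 TPM in 3 or more libraries left 20990 genes to test, among them all 7 clock genes. Of the 7, 6 had at least 1 TPM in all 6 libraries, and TOC1 Zm00001d017241 had it in 3. Leaf marker genes and the level of ZmGA20ox3 were not analysed here for want of names for the identifiers. In whole leaves, fewer cells of a type and less RNA per cell cannot be told apart.

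PRR37 rose and CCA1/LHY Zm00001d049543 fell in KO1 leaves, while the other 5 clock genes did not pass the test. PRR37 was 11.6-fold higher in KO1 by mean TPM, and Zm00001d049543 was 2.80-fold lower. The difference was tested with limma on log2(TPM + 1) over all tested genes, with Benjamini-Hochberg adjustment and a threshold of 0.05. By this test 2 of 7 clock genes were called, beside 15.7% of all tested genes, so the number of calls among so few genes is no result by itself. A rise was called for 9.87% of tested genes and a fall for 5.86%, or 2071 and 1230 genes. After quantile normalization these were 1656 and 1738, a near-even split. The 3301 calls in either direction became 778 or 1314 when WT replicate 3 or 1 was left out, and 1482 or 1856 when KO1 replicate 1 or 2 was. The median difference of the 7 clock genes was -0.35 on the log2(TPM + 1) scale, beside 0.05 for all tested genes. Their median absolute difference of 0.42 on that scale was the same, to 2 decimals, as that of all tested genes.

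**Figure D1:**
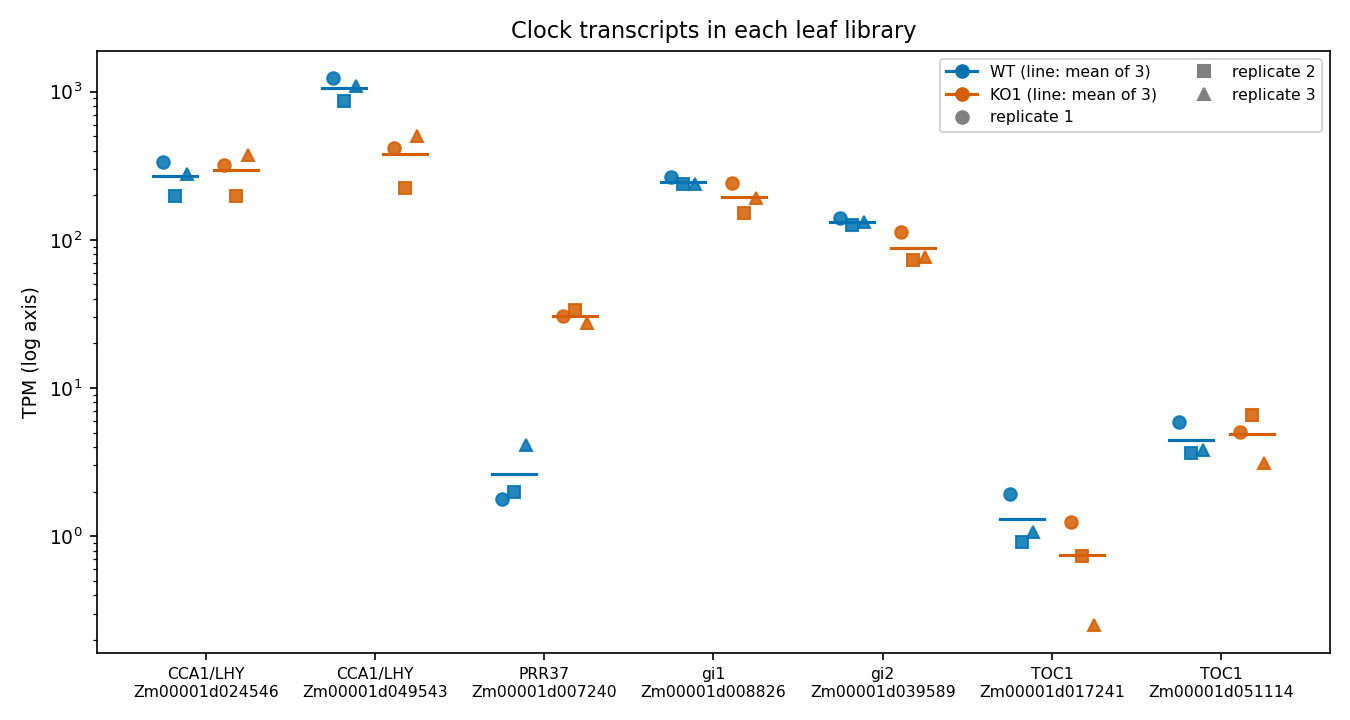
TPM on a log axis of each clock gene in each library, with WT in blue, KO1 in orange, a marker shape per replicate number and a line at the mean of 3. PRR37 lies between 27.4 and 33.6 TPM in KO1 and at or below 4.11 TPM in WT, and Zm00001d049543 lies below every WT library in KO1.

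The CCA1/LHY genes, the dawn factors of the loop, were among the most abundant leaf transcripts in both genotypes. CCA1/LHY Zm00001d049543 had 1235, 867 and 1088 TPM in WT replicates 1 to 3, and 416, 223 and 502 TPM in KO1 replicates 1 to 3. The groups did not overlap, and the lowest WT library was 1.73-fold above the highest KO1 library. The group means were 1063 ± 185 TPM in WT and 380 ± 143 TPM in KO1 (SD, n = 3 each). The difference, KO1 minus WT, was -1.55 on the log2(TPM + 1) scale with a standard error of 0.34 and a 95% interval from -2.36 to -0.73 (limma adjusted p = 0.030). Of all tested genes, 2.57% had a difference as low or lower. By mean TPM the gene ranked 97 among tested genes in WT and 296 in KO1. The other CCA1/LHY gene, Zm00001d024546, ranked 478 in WT and 424 in KO1.

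The call on Zm00001d049543 depended on single libraries, while its direction did not. Without WT replicate 1 the limma adjusted p was 0.090, without WT replicate 3 it was 0.111, and without KO1 replicate 1 it was 0.068. Leaving out single libraries kept the difference itself between -1.79 and -1.20. With no filter on low values, which adds genes to the adjustment, the adjusted p was 0.052.

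The other CCA1/LHY gene did not pass. Zm00001d024546 had 334, 198.5 and 280 TPM in WT replicates 1 to 3, and 322, 199 and 374 TPM in KO1 replicates 1 to 3. The groups overlapped almost fully, with means of 271 ± 68.2 TPM in WT and 298 ± 90.0 TPM in KO1 (SD, n = 3 each). The difference was 0.12 on the log2(TPM + 1) scale, with a 95% interval from -0.61 to 0.86 (limma adjusted p = 0.808). A change of either sign within that interval is not distinguishable from none at this spread.

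The balance between the CCA1/LHY genes differed between the WT and KO1 libraries, mainly through the lower level of Zm00001d049543 in KO1. The ratio of Zm00001d049543 to Zm00001d024546 in TPM was 3.70, 4.37 and 3.89 in WT replicates 1 to 3, and 1.29, 1.12 and 1.34 in KO1 replicates 1 to 3. Every WT ratio lay above every KO1 ratio, and the ratio varied little within a group although both genes did. The log2 ratio was 1.99 ± 0.12 in WT and 0.32 ± 0.14 in KO1, a difference of -1.67 (SD, n = 3 each; exact two-sided permutation p = 0.1). The same test was run on 3 pairs of clock genes, and 0.1 is the smallest p that 3 against 3 can give, also after adjustment over the 3 pairs. Zm00001d049543 made up 79.9% of the TPM of the pair in WT and 55.5% in KO1. How far reads were shared between these related genes was not tested.

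**Figure D2:**
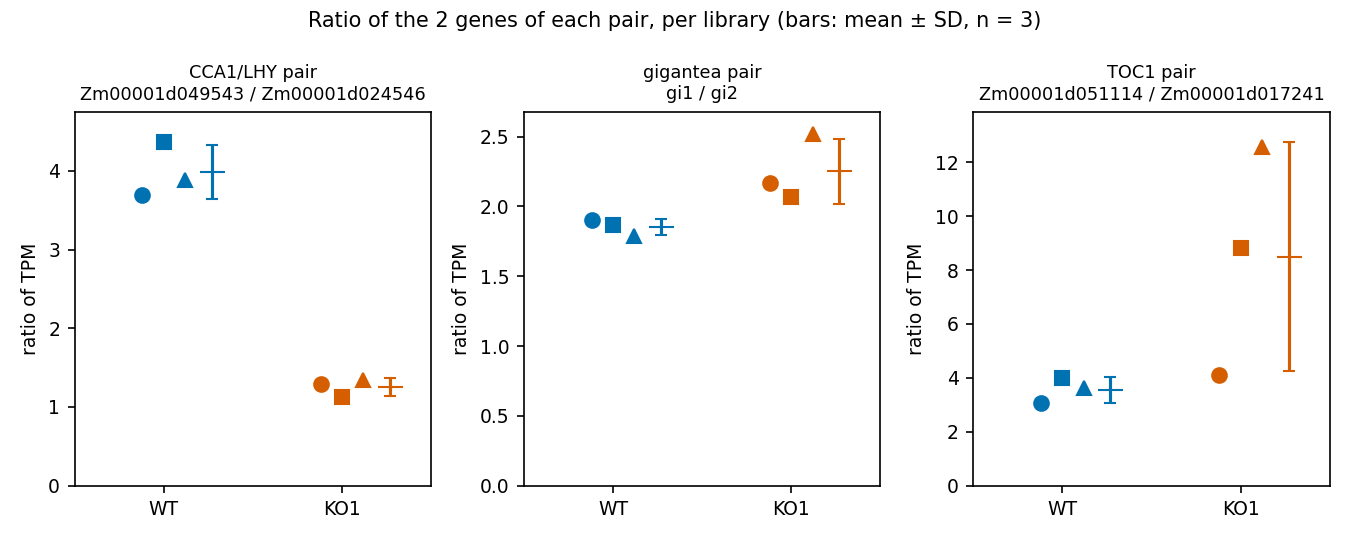
Ratio in TPM of the genes of each pair, per library, with axes from 0 and bars showing mean ± SD (n = 3). The CCA1/LHY ratio was 3.98 ± 0.34 in WT and 1.25 ± 0.11 in KO1, and the gi1 to gi2 ratio 1.85 ± 0.06 and 2.25 ± 0.24.

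The CCA1/LHY genes together held 1569, 1065 and 1367 TPM in the WT libraries. In the KO1 libraries they held 738, 422 and 875 TPM. Each KO1 library lay below each WT library, by 1.97-fold on the means. This sum carries the fall of Zm00001d049543, since the other gene's level overlapped between the groups.

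PRR37, a pseudo-response regulator of the daytime, was the clock gene with the largest difference between the genotypes. It had 1.79, 1.99 and 4.11 TPM in WT replicates 1 to 3, and 30.7, 33.6 and 27.4 TPM in KO1 replicates 1 to 3. The lowest KO1 library was 6.67-fold above the highest WT library. Means were 2.63 ± 1.29 TPM in WT and 30.6 ± 3.11 TPM in KO1 (SD, n = 3 each). The difference was 3.17 on the log2(TPM + 1) scale, with a standard error of 0.27 and a 95% interval from 2.53 to 3.81 (limma adjusted p = 0.0018). On this scale the rise is smaller than the ratio of TPM, because WT levels lie near the added value of 1.

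A difference as large or larger was found in 257 of the 20990 tested genes, or 1.22%. By mean TPM PRR37 moved from rank 17256 among tested genes in WT to rank 5495 in KO1. Its call held in all 16 alternative fits, with differences from 2.68 to 3.58 and limma adjusted p from 0.0014 to 0.011.

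**Figure D3:**
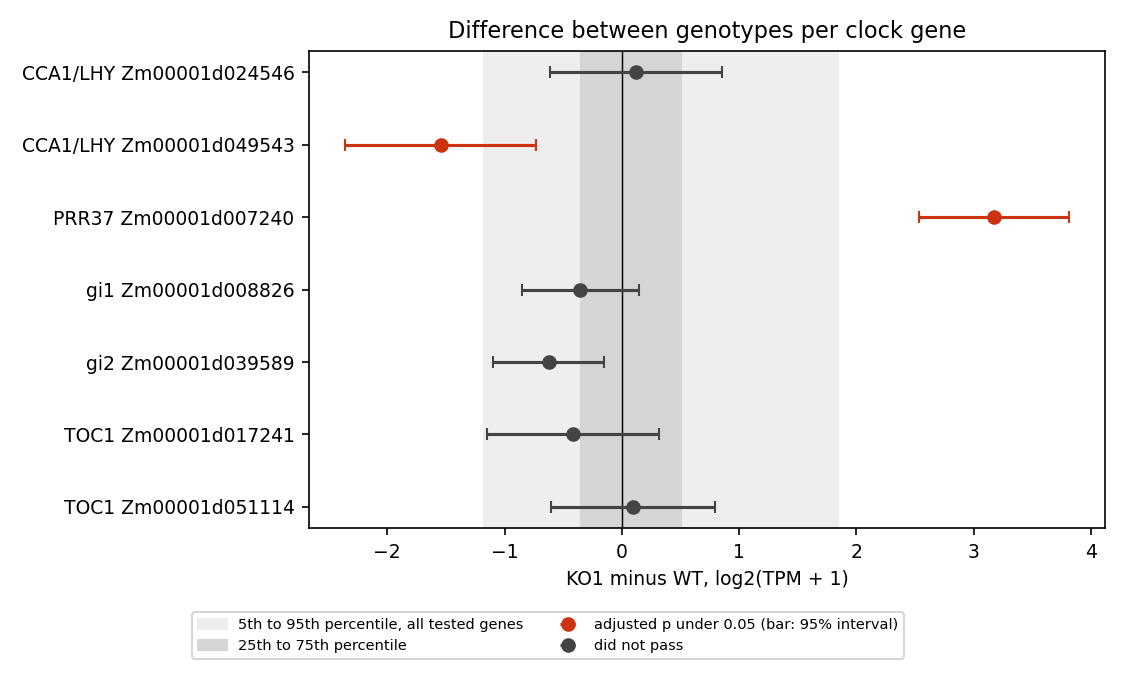
KO1 minus WT difference of each clock gene on the log2(TPM + 1) scale, with 95% intervals from limma and grey bands for all tested genes (5th to 95th percentile, -1.18 to 1.84, and 25th to 75th, -0.35 to 0.50). PRR37 at 3.17 and Zm00001d049543 at -1.55 lie outside the wider band, and the other 5 genes lie inside it.

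The gigantea genes had high levels in all libraries. In Arabidopsis GIGANTEA links the clock to flowering through CONSTANS and FLOWERING LOCUS T, and maize has the copies gi1 and gi2. The transcript of gi1 had 265, 237 and 237 TPM in WT replicates 1 to 3, and 243, 152 and 193 TPM in KO1 replicates 1 to 3. KO1 replicate 1 lay within the WT range and the other KO1 libraries below it. The difference was -0.35 on the log2(TPM + 1) scale, with a 95% interval from -0.85 to 0.14 (limma adjusted p = 0.275).

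The gi2 transcript lay lower in every KO1 library than in any WT library, without passing the threshold. It had 140, 127 and 133 TPM in WT replicates 1 to 3, and 112, 73.4 and 76.7 TPM in KO1 replicates 1 to 3. The closest libraries, WT replicate 2 and KO1 replicate 1, were 1.13-fold apart. Means were 133 ± 6.47 TPM in WT and 87.4 ± 21.5 TPM in KO1 (SD, n = 3 each). The difference was -0.62 on the log2(TPM + 1) scale, with a standard error of 0.20 and a 95% interval from -1.10 to -0.15 (limma adjusted p = 0.076). It passed under trimmed-mean scaling (limma adjusted p = 0.047), with library weights (0.026) and without KO1 replicate 1 (0.038). The weights were 8.53 for WT replicate 3 and 0.57 and 0.65 for WT replicates 1 and 2. The WT side of the weighted fit thus rests mostly on a single library.

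With gi2, 3 of the 7 clock genes had groups that did not overlap, beside 40.5% of tested genes, a share close to that of the clock genes. Over tested genes, 22.9% had all KO1 libraries above all WT libraries and 17.6% had them below.

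The ratio of gi1 to gi2 was 1.90, 1.87 and 1.79 in WT, and 2.17, 2.07 and 2.52 in KO1. The ranges did not overlap but lay close, at 0.27 on the log2 scale between the group means (exact two-sided permutation p = 0.1, the smallest possible). The gigantea genes stayed near each other in profile. After each gene's own mean over the 6 libraries was subtracted, the root-mean-square difference between gi1 and gi2 was 0.16 on the log2(TPM + 1) scale. Of tested genes, 3.40% lay closer to gi1 than gi2 did, and 1.28% lay closer to gi2 than gi1 did. For the CCA1/LHY pair the same measure was 0.84, with 81.4% of tested genes closer to Zm00001d024546 than its partner and 37.1% closer to Zm00001d049543. The measure takes in the difference between genotypes. For the CCA1/LHY pair it mostly restates the log2 ratio difference of -1.67 given above. Within a genotype the log2 ratio of that pair had an SD of 0.12 in WT and 0.14 in KO1. For the TOC1 pair it was 0.32, with 8.55% closer to Zm00001d017241 and 10.9% closer to Zm00001d051114.

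The TOC1 genes, dusk-phased in Arabidopsis, had low levels in both genotypes, at ranks 15186 in WT and 15574 in KO1 for Zm00001d051114 and 19336 and 20673 for Zm00001d017241 among the 20990 tested genes. TOC1 Zm00001d051114 had 5.92, 3.65 and 3.84 TPM in WT replicates 1 to 3, and 5.08, 6.53 and 3.14 TPM in KO1 replicates 1 to 3. The groups overlapped, and the difference was 0.09 on the log2(TPM + 1) scale, with a 95% interval from -0.60 to 0.79 (limma adjusted p = 0.844). TOC1 Zm00001d017241 had 1.94, 0.91 and 1.06 TPM in WT replicates 1 to 3, and 1.24, 0.74 and 0.25 TPM in KO1 replicates 1 to 3.

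By mean TPM this was the lowest clock gene in each genotype, although PRR37 lay below it in WT replicate 1. The groups overlapped here too, and the difference of Zm00001d017241 was -0.42, with a 95% interval from -1.15 to 0.32 (limma adjusted p = 0.378). The median tested gene had 11.5 TPM in WT and 12.9 TPM in KO1, above every TOC1 value. The TOC1 ratio, Zm00001d051114 over Zm00001d017241, was 3.05, 4.01 and 3.62 in WT and 4.10, 8.82 and 12.6 in KO1 (exact two-sided permutation p = 0.1, the smallest possible). The denominator is at or below 1.94 TPM in every library, so this ratio is imprecise.

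The order of levels was shared by both genotypes except for the place of PRR37. TPM is per length, so levels can be compared between genes. In WT the order from high to low by mean TPM was Zm00001d049543, Zm00001d024546, gi1, gi2, TOC1 Zm00001d051114, PRR37 and TOC1 Zm00001d017241. Zm00001d024546 and gi1 overlapped over the WT libraries, as did PRR37 with each TOC1 gene next to it in the order. In KO1, PRR37 stood above both TOC1 genes and below gi2, with no overlap on either side. Zm00001d049543 and Zm00001d024546 overlapped in KO1, as did Zm00001d024546 and gi1, although the order held within each KO1 library.

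The CCA1/LHY genes stood far above the TOC1 genes in every library. The summed CCA1/LHY TPM was 200, 234 and 279 times the summed TOC1 TPM in WT, and 117, 58.0 and 258 times in KO1. KO1 replicate 3 lay within the WT range and the other KO1 libraries below it. Against the summed gi1 and gi2 TPM, the CCA1/LHY sum was 3.87, 2.93 and 3.70 times as high in WT and 2.08, 1.87 and 3.25 times in KO1, where the groups again overlapped.

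Against PRR37 the groups were far apart, with CCA1/LHY at 876, 535 and 333 times PRR37 in WT and at 24.0, 12.5 and 31.9 times in KO1. PRR37 thus moved against the CCA1/LHY sum between the genotypes, while the ratios of that sum to the TOC1 and gigantea sums did not separate the groups. The gigantea sum itself was lower in every KO1 library than in any WT library, with means of 283 TPM in KO1 and 379 TPM in WT. The closest libraries nearly met, at 355 TPM in KO1 replicate 1 and 364 TPM in WT replicate 2. Of tested genes, 17.6% also had all KO1 libraries below all WT libraries. The sum was not tested, and neither gigantea gene passed by itself. The TOC1 sum overlapped between the groups.

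As a single number per library, the mean log2(TPM + 1) of the CCA1/LHY genes minus that of gi1, gi2 and the TOC1 genes was 4.44, 4.19 and 4.54 in WT. It was 3.89, 3.43 and 4.70 in KO1. The libraries overlapped, and KO1 replicate 3 had the highest value of all 6. The mean of KO1 minus that of WT was -0.39, smaller in size than the spread among KO1 libraries (SD 0.64, n = 3). It was -0.73 without KO1 replicate 3 and -0.10 without KO1 replicate 2. No test was made on this score. Hour of harvest is not in the labels used here, each library is a single time point, and time of day and genotype cannot be told apart in these values.

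**Figure D4:**
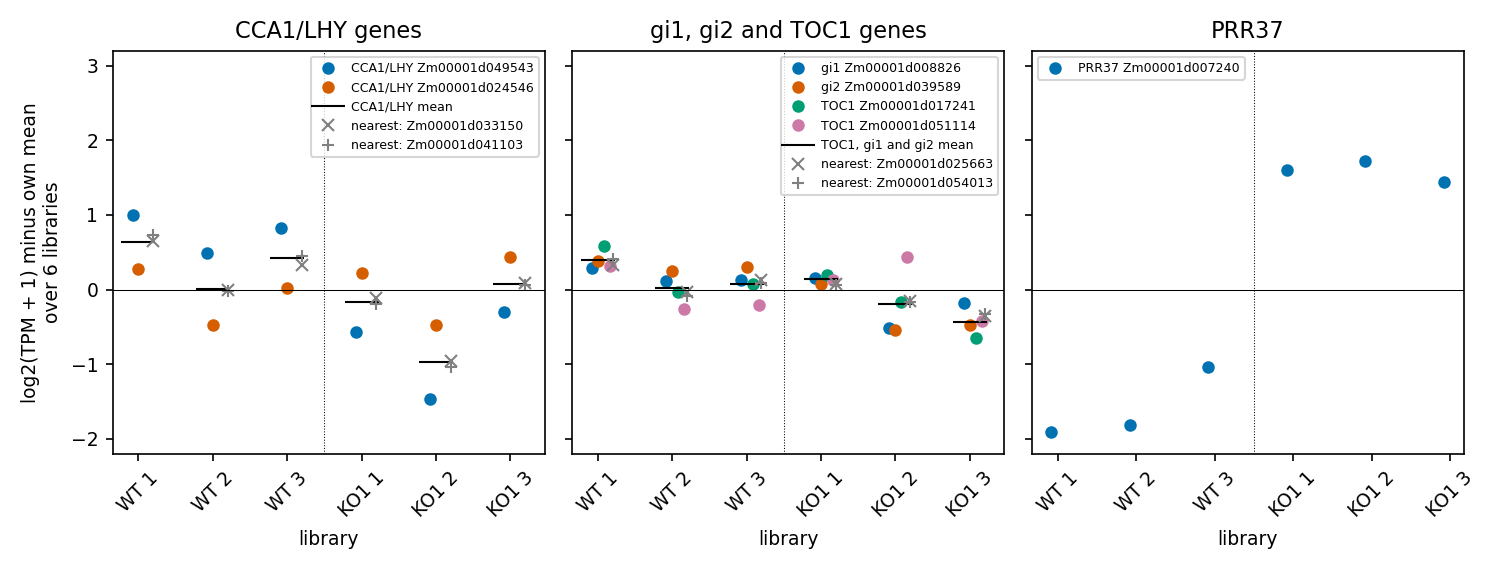
Log2(TPM + 1) of each clock gene in each library minus its own mean over the 6 libraries, with the mean profile of each group (black bar) and the other genes nearest to that profile (grey). PRR37 separates the genotypes most, and among the KO1 libraries replicate 2 is lowest for both CCA1/LHY genes.

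Within a genotype, several clock genes had their lowest level in the same library. In WT, 6 of 7 clock genes were lowest in replicate 2, all but PRR37, beside 30.9% of tested genes. For gi1 this was a near tie, at 236.9 TPM in WT replicate 2 and 237.33 TPM in WT replicate 3. The same libraries were also close for gi2, at 127 and 133 TPM. For the TOC1 genes they held 3.65 and 3.84 TPM (Zm00001d051114) and 0.91 and 1.06 TPM (Zm00001d017241). In KO1, 4 of 7 were lowest in replicate 2, namely both CCA1/LHY genes, gi1 and gi2, beside 41.5% of tested genes. Among so few genes, most of them in related pairs, neither the WT nor the KO1 count is a result by itself. The other 3, PRR37 and the TOC1 genes, were lowest in KO1 replicate 3. These counts were made after the values had been seen.

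The spread among replicates differed between the clock genes. The gigantea genes varied little in WT, with a coefficient of variation of 6.58% for gi1 and 4.86% for gi2, and more in KO1, with 23.3% and 24.6%. In WT only 8.41% of tested genes had a smaller SD of log2(TPM + 1) than gi2, while in KO1 57.4% did. Zm00001d049543 had a coefficient of variation of 17.4% in WT and 37.5% in KO1. PRR37 went the other way, with 48.9% in WT, where its level was low, and 10.2% in KO1. The difference in spread was not tested.

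Some other genes lay close to the mean of the 2 CCA1/LHY profiles over the 6 libraries. That mean averages 2 genes whose profiles part mainly between the genotypes, at a root-mean-square difference of 0.84 from each other. Closeness to the mean is therefore not closeness to either CCA1/LHY gene. Among 15398 other tested genes with a mean of at least 5 TPM, Zm00001d033150 was nearest, with a root-mean-square difference of 0.05 on the log2(TPM + 1) scale after centring. Its WT libraries held 553, 348 and 440 TPM and its KO1 libraries 325, 180 and 371 TPM. Next came Zm00001d041103 at 0.05, whose WT libraries held 43.3, 25.3 and 35.4 TPM and whose KO1 libraries held 22.4, 12.03 and 26.8 TPM. Both were chosen for closeness to a profile that is itself lowest in replicate 2 of each genotype. Their own lowest values in those libraries, and the size of their differences between genotypes, follow from that choice. Neither gene passed the test between genotypes (limma adjusted p = 0.208 and 0.156).

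The mean profile of gi1, gi2 and the TOC1 genes had a smaller range, 0.82 on that scale against 1.61 for the CCA1/LHY profile, so a small distance to it is easier to reach. Zm00001d025663 was nearest at 0.06, at 29.8, 23.0 and 25.8 TPM in the WT libraries and 24.6, 21.0 and 18.1 TPM in the KO1 libraries. Zm00001d054013 followed at 0.07, at 27.3, 19.1 and 21.6 TPM in the WT libraries and 21.2, 18.02 and 15.9 TPM in the KO1 libraries. These genes carry no name in the sources used here.

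**Figure D5:**
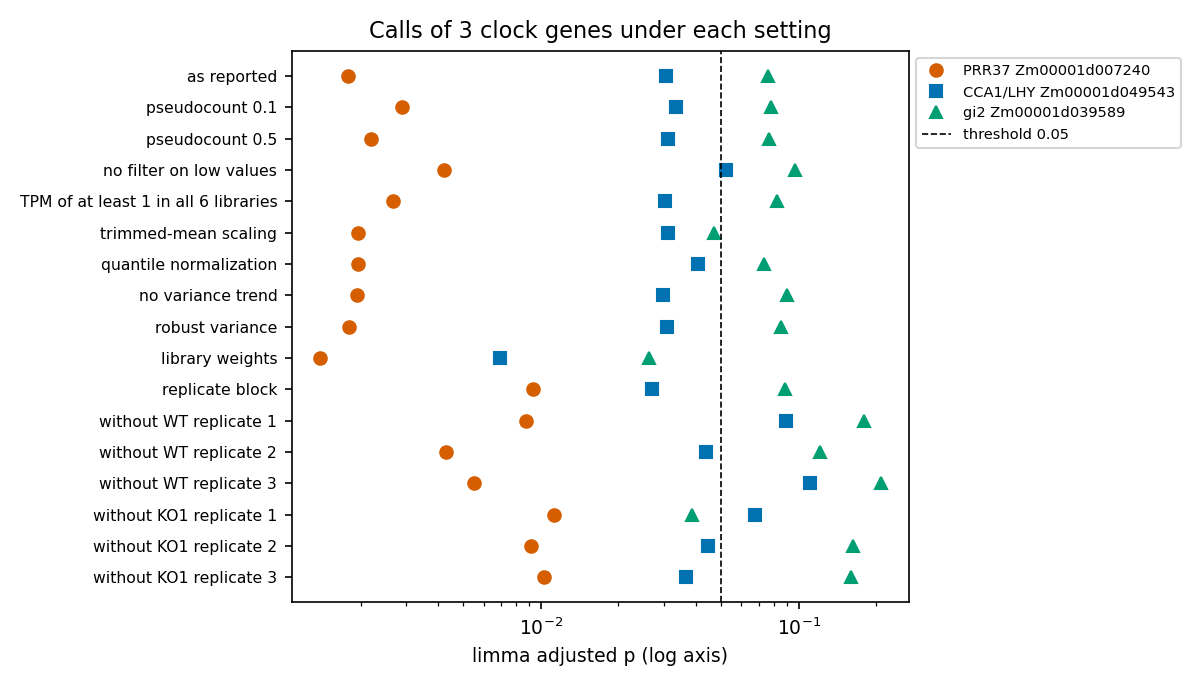
Limma adjusted p (log axis) of PRR37, CCA1/LHY Zm00001d049543 and gi2 as reported and in 16 alternative fits, with a dashed line at 0.05. PRR37 stays left of the line throughout, Zm00001d049543 crosses to the right in 4 fits, and gi2 crosses to the left in 3.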

How the data were processed

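RNA of 6 maize leaf libraries (3 WT, 3 KO1) was sequenced. The authors deposited 1 table of TPM values for 44320 genes, rounded to 2 decimals. The submitters' processing notes name Bowtie2, RSEM and DESeq2 with no roles. Genome build, annotation and read filters were not given in the sources used here. Groups and replicate numbers came from the sample titles.

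Genes with at least 1 TPM in at least 3 libraries (20990) were log-transformed as log2(TPM + 1) and fitted with limma 3.58.1 under R 4.3.3, using a trended variance, no covariates and two-sided tests. P-values were adjusted over all of them. The procedure was run on simulated data in which a gene's noise was normal, independent and of equal spread in all libraries. The libraries here are of unequal spread, so that run does not measure error rates in these data. Ratios of gene pairs were compared by exact permutation in scipy 1.17.1. Folds are ratios of mean TPM. Plots were drawn with matplotlib 3.10.9.

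The clock genes, lists and tests were chosen with earlier results of these data known. All 7 genes are named, together with the 2 genes nearest to each of 2 mean profiles. Of 49888 genes in a RefSeq table (Zm-B73-REFERENCE-NAM-5.0), 0 matched the table's identifiers, so a wider list of clock genes, marker lists and sequences were not analysed here. Same-numbered libraries correlated at -0.01, 0.09 and 0.02 in their deviations from group means, under the minimum of 0.1, and were not treated as pairs. Between libraries of unlike number the correlations ran from -0.11 to 0.11.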

Additional observations from a re-analysis of the deposited data

How the results depend on the processing

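The count of 2 called clock genes was 1 with no filter on low values, and 1 to 2 over the fits that leave out a single library, with PRR37 alone called without WT replicate 1 or WT replicate 3, and PRR37 and gi2 called, but not Zm00001d049543, without KO1 replicate 1. It was 3, with gi2 added, under trimmed-mean scaling and with library weights. With a replicate block it stayed at 2, and no call on a clock gene changed. The count over all tested genes was 3301 as reported, 6838 with library weights and from 778 to 2929 when a library was left out. In the weighted fit the WT group rests mostly on WT replicate 3, at a weight of 8.53. Of the 3301 calls, 2071 were higher and 1230 lower, against 1656 and 1738 after quantile normalization, which moved the median difference of all tested genes from 0.05 to -0.09. The difference of CCA1/LHY Zm00001d024546 ran from -0.085 to 0.39 when a library was left out. That of TOC1 Zm00001d051114 ran from -0.10 to 0.33, and was -0.10 after quantile normalization, so neither kept its direction. The score of the CCA1/LHY genes minus the gigantea and TOC1 genes had a lower mean in KO1 in all 11 alternatives. The differences ran from -0.73 to -0.10. As reported, KO1 replicate 3 had the highest score of all 6 libraries, and the KO1 SD was 0.64. TOC1 Zm00001d017241 has no value under the filter of 1 TPM in all 6 libraries. Causes of these changes were not tested. Depth is unknown, which leaves the precision of the TOC1 levels unknown.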
